A study of Mus musculus with 12 samples.

Results

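The epidermal growth factor (EGF) receptor system was followed through genes for its ligands and receptors in mouse pancreatic cells. The gene set was named by symbol: the ligands Tgfa, Egf, Hbegf, Areg, Ereg, Btc and Epgn, and the receptors Egfr, Erbb2 and Erbb3. Each gene was read from the probe set that carried its symbol alone and had the highest mean over the 12 arrays. This gave 9 of the 10 named genes, out of 22180 genes measured. Areg, which encodes amphiregulin, had no such probe set in the annotation used, so it has no value here.

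RNA had been hybridised to Affymetrix arrays, 3 for each of 4 groups, and every sample carries the strain label C57Bl6/J wildtype. Acinar cells make and secrete the digestive enzymes of the pancreas. Those of adult and of embryonic origin had been isolated by collagenase digestion and lysed for RNA without culture. The acinar-to-ductal metaplasia (ADM) cultures, in which acinar cells take on duct features, had been kept for 7 days in a three-dimensional collagen gel with 50 ng/ml TGF-alpha. That protein is itself a ligand of the EGF receptor, so the ADM arrays report RNA of cells exposed to added ligand. The tumor cells were low-passage pancreatic cells grown in standard medium, and their 3 sample descriptions share the same number, so whether they are more than 1 line is unknown. The labels give no ages, no embryonic stage and no genotype of the tumor beyond the strain, and leave unsaid whether the replicates came from different animals or cultures. The p-values then measure the spread between these arrays, which may be technical.

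Ligands of this family are made as membrane-anchored precursors, and proteases of the ADAM family cut them free to act on the same or neighbouring cells. A bound ligand brings receptors together in pairs, after which their kinase domains start the RAS and MAPK cascade. TGF-alpha, EGF, amphiregulin and epigen bind the EGF receptor, whereas HB-EGF, betacellulin and epiregulin also bind ErbB4. ErbB2 has no known soluble ligand and serves as the preferred partner, and ErbB3 binds neuregulins and has a weak kinase. In the exocrine pancreas, TGF-alpha and EGF are known to drive acinar cells in culture toward duct-like structures.

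Promoter sequence is shown for 4 of the measured genes, 3 of which were higher in ADM and tumor cells (Tgfa, Btc and Egfr) and 1 of which was lower (Egf). RefSeq windows on build GRCm38.p6 were found for 7 of the 10 named genes, in 8 windows, because Egf has 2 starts. The entries not found were Hbegf, Ereg and Erbb3. Each line gives the 250 bases before the start, 5′ to 3′ on the gene's strand. The Tgfa window is chr6:86194972-86195221 (plus strand, before a start inside the outermost RefSeq limits of the gene), and the Egfr window is chr11:16751953-16752202 (plus strand). The Btc window is chr5:91402995-91403244 and the Egf window is chr3:129755323-129755572, both on the minus strand. Capitals mark the GC box, GGGCGG, on either strand.
Tgfa: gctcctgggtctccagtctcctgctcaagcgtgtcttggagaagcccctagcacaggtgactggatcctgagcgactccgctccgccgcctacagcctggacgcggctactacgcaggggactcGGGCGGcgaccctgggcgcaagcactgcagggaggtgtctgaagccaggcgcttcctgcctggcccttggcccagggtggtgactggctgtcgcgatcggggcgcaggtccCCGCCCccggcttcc
Egfr: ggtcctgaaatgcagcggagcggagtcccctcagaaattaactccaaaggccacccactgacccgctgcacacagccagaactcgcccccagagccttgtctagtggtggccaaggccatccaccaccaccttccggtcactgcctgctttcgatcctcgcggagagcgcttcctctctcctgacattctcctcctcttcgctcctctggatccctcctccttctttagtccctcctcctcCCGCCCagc
Btc: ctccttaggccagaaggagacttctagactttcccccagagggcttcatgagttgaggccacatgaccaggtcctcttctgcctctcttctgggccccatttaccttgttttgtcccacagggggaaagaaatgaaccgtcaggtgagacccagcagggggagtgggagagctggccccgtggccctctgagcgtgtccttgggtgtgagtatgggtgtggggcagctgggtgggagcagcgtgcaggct
Egf: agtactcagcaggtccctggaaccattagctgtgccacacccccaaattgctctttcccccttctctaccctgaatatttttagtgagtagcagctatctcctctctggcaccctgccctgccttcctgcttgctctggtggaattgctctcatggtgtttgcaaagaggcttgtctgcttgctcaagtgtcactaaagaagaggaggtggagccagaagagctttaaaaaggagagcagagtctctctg
The GC box was found in 3 of the 8 windows, those of Tgfa (2 matches), Egfr (1 match) and Areg (1 match), against 32.7% of 32851 mouse promoter windows of the same length. The AP-1 motif TGANTCA was found in 0 of the 8 windows, against 6.75% of all windows. The TATA box TATAAA was found in 2 of the 8, those of Areg and Epgn, against 12.4% of all. The cAMP element TGACGTCA was found in 1, that of Areg, against 1.55%. All motifs were searched on both strands, none of the matches overlapped another, and a match of letters is a description of sequence only. GC content of the windows was 69.2% for Tgfa, 60.8% for Egfr, 59.6% for Btc and 50.4% for Egf, where the median of all windows was 52.4%.

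Values are log2 signal as deposited, the log base being inferred from their range. A difference is called where limma's test over all 22180 genes gave an adjusted p (Benjamini-Hochberg) under 0.05 and the log2 difference was at least 1 in size. The background level, 3.62, is the value under which lay 95% of the group means of 1394 receptor genes of smell (olfactory and vomeronasal). The brightness of different probe sets cannot be compared, so each gene is compared only with itself. Of all genes, ADM against adult acinar cells gave 12.5% higher and 4.22% lower, tumor against adult gave 14.0% and 5.96%, and embryonic against adult gave 10% and 2.61%. These shares depend on scaling. Calls were 74.7% higher in ADM against adult as deposited, and 59.5% under quantile normalization, 59.4% under cyclic loess, 38.0% with arrays centred on their 75th percentile and 10.7% with arrays centred on housekeeping genes. In the same order the share was 70.2%, 57.4%, 53.0%, 46.1% and 14.2% for tumor against adult, and 79.3%, 64.0%, 69.1%, 37.7% and 32.3% for embryonic against adult. Housekeeping centring also moved it from 48.1% to 24.6% for ADM against embryonic and from 45.5% to 24.5% for tumor against embryonic. It moved the median of all genes from -0.11 to -0.89 in ADM against adult, from -0.09 to -0.86 in tumor against adult and from -0.09 to -0.53 in embryonic against adult, and 75th percentile centring moved them to -0.52, -0.43 and -0.49.

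The labels were checked against marker genes. The 9 measured acinar markers were all above background in adult, embryonic and ADM groups. Against adult cells 7 of them fell in ADM, where 4.22% of all genes did, with a list median of -2.97. Among these, Cela1, an elastase gene, went from 13.23 to 8.44 and Bhlha15, a transcription factor gene of secretory cells, from 10.05 to 4.16. Cpa1, carboxypeptidase A1, was 1 of the 2 not called, at 12.41 in ADM against 13.13 in adult cells. In tumor cells 5 of the 9 were above background and Cpa1 stood at 3.96. The duct keratin Krt19 stood at 6.92 in adult, 7.82 in embryonic, 10.12 in ADM and 10.37 in tumor cells. The epithelial surface gene Epcam was at 3.82 in tumor cells, close to background, against 9.09 in ADM and 6.82 in adult cells. Of 10 measured duct markers 7 rose and 0 fell in ADM against adult cells, where 12.5% and 4.22% of all genes did. In tumor against adult cells 4 rose (Krt19, Krt7, Krt8 and Krt18) and 4 fell (Sox9, Epcam, Muc1 and Onecut1), where 14.0% and 5.96% did. Mean log2 signal of 12 fibroblast and stellate markers ran from 5.10 to 5.29 on adult arrays, from 8.44 to 9.09 on embryonic, from 6.95 to 8.17 on ADM and from 3.62 to 3.72 on tumor arrays. The lowest ADM array in that list was replicate 2. All 12 of these markers were above background in the adult, embryonic and ADM groups, and 4 of 12 in tumor cells, where Pdgfra, Dcn, Lum, Thy1 and Postn were among those at or under it. Endothelial markers ran from 7.13 to 7.29 on embryonic arrays and from 5.19 to 5.47 on adult and ADM arrays, with 4 of 10 above background in tumor cells. Endocrine markers ran from 9.50 to 9.84 on embryonic arrays and from 4.01 to 6.79 on the others. Duct markers ran from 9.36 to 9.43 on ADM arrays and from 7.23 to 8.03 on the others. Against adult cells, embryonic samples had 4 of 7 neural, 2 of 4 erythroid and 5 of 5 mesothelial markers higher. In ADM cultures these counts were 1, 0 and 1, and in tumor cells 0, 0 and 1. Of all genes 10%, 12.5% and 14.0% were higher in these comparisons. The mesothelial marker higher in ADM and tumor cells was Msln, and Upk3b was lower in both. No other marker of these lists was called lower against adult cells. Immune markers ran from 4.20 to 5.54 over all arrays. In embryonic against adult cells 5 of 10 rose (Ptprc, Cd68, Csf1r, Adgre1 and Lyz2) and 0 fell, with a median of 0.87. Of all genes 10% rose and 2.61% fell there. In ADM against adult cells 3 of 10 rose and 0 fell. Of all genes 12.5% rose and 4.22% fell in that comparison. Those that rose in ADM were the myeloid genes Cd14 (4.36 to 8.11), Cd68 (4.84 to 6.71) and Lyz2 (7.88 to 9.28). The myeloid genes Csf1r, Adgre1, Itgam and Ly6g of the same list were not called in ADM. The list median in ADM was -0.185, where that of all genes was -0.11. In tumor cells Cd14 stood at 9.61 and Lyz2 at 3.62. The pan-leukocyte gene Ptprc was above background in adult and embryonic groups and under it in ADM and tumor cells.

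**Figure D1:**
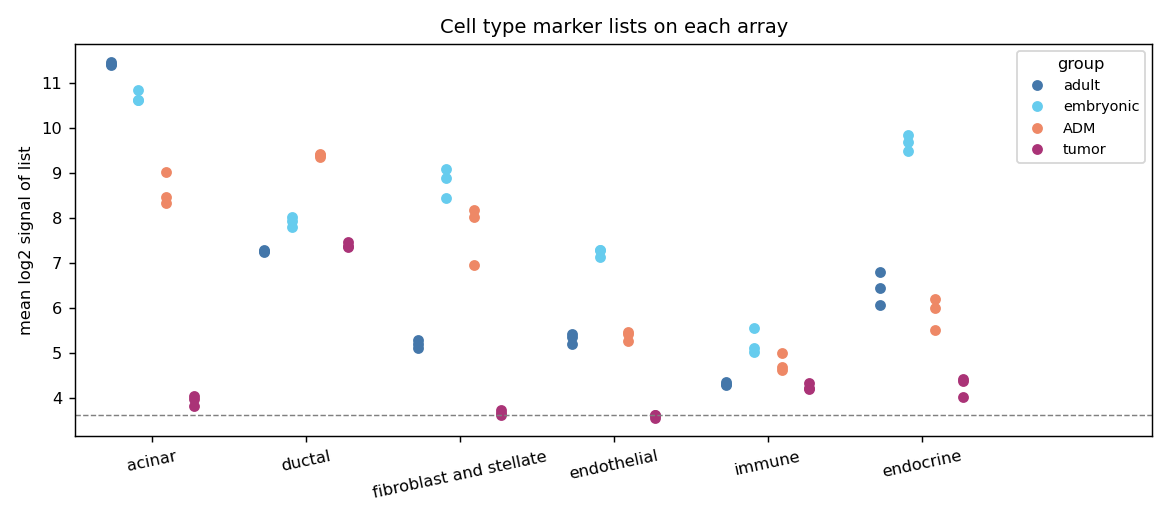
Mean log2 signal (vertical axis) of 6 cell type marker lists (horizontal axis) on each of the 12 arrays (points, coloured by group), with the background level of 3.62 dashed. Embryonic and ADM arrays carry more fibroblast and stellate marker signal than adult arrays, and on tumor arrays that list lies at 3.62 to 3.72.

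In ADM cultures 4 of the 6 measured ligands and all 3 receptors were higher than in adult acinar cells, and 1 ligand, Egf, was lower. Together that is 8 of 9 genes called, where 16.7% of all genes were. Tumor cells showed the same 4 ligands higher and Egf lower, with 2 of the 3 receptors higher, or 7 of 9 called, where 20% of all genes were. With housekeeping centring the ligands counted 2 higher and 2 lower in both comparisons, since Tgfa and Btc were no longer called and Epgn was called lower. That scaling called 9884 of the 22180 genes in ADM against adult cells and 9336 in tumor against adult cells. Of these calls 10.7% and 14.2% were higher, and the medians of all genes were -0.89 and -0.86. Under the other 3 scalings they counted 4 higher and 1 lower in both. The median log2 difference of the 6 ligands was 1.53 in ADM and 1.66 in tumor cells, and that of the 3 receptors 2.69 and 1.79, where the medians of all genes were -0.11 and -0.09. Both comparisons share the adult arrays. In embryonic acinar cells 2 of the 9 genes were called, Egf lower and Erbb2 higher, where 12.6% of all genes were called. In these bulk samples fewer cells of a type and less RNA per cell cannot be told apart. In the ADM cultures, time, collagen and added TGF-alpha came together and cannot be told apart either.

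**Figure D2:**
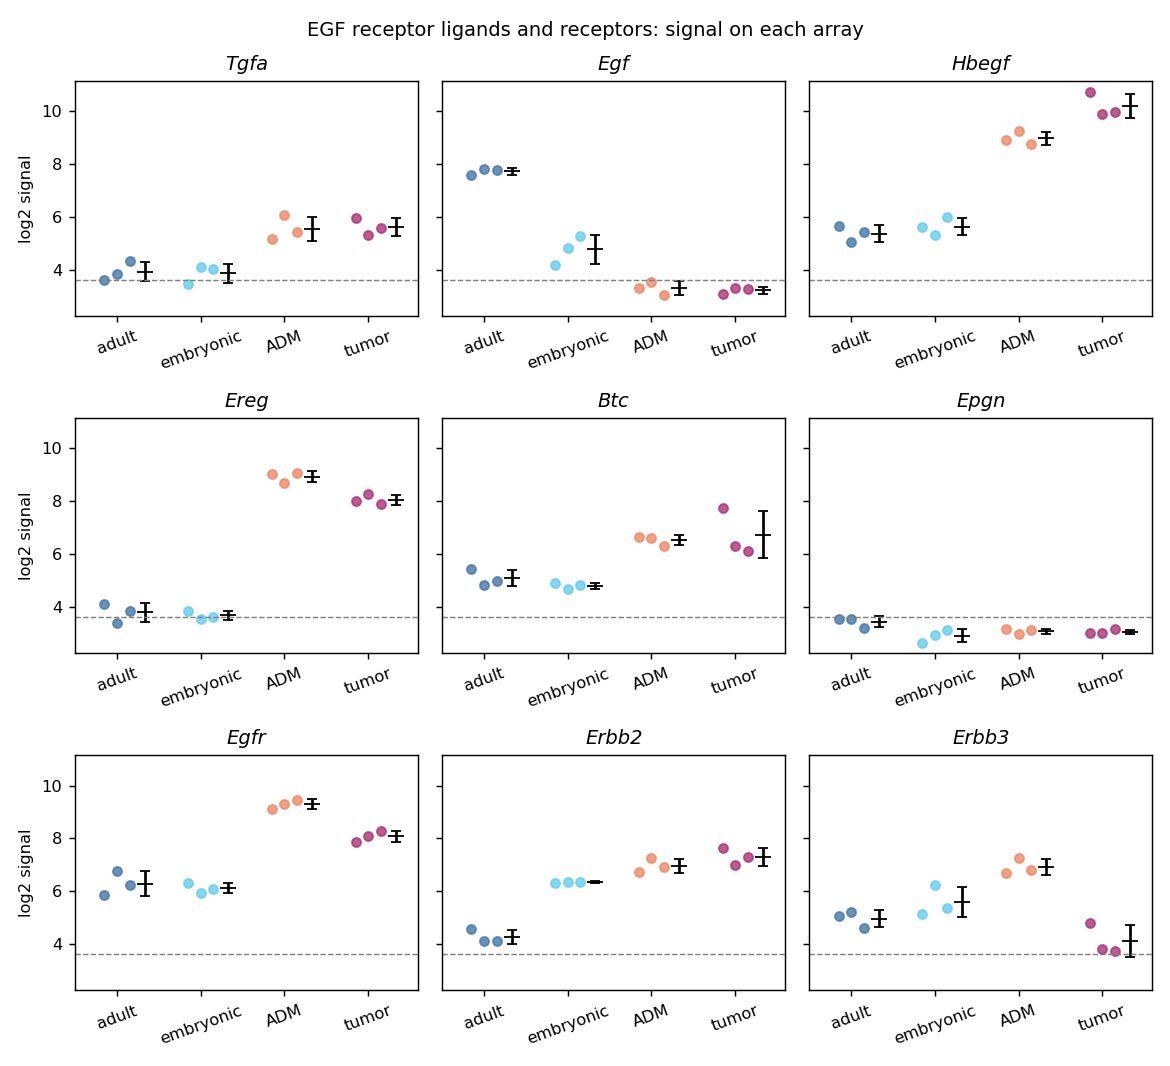
Log2 signal (vertical axis) of the 9 measured genes on each array, by group (points, replicates 1 to 3 from left to right), with the mean ± SD of 3 arrays in black and the background level of 3.62 dashed. Ereg, Hbegf and Egfr are high in ADM and tumor cells, Egf is high in adult acinar cells, and Erbb3 peaks in ADM.

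Ereg encodes epiregulin, a ligand that binds weakly but signals for a long time. It read 4.12, 3.40 and 3.84 on the adult arrays and 3.84, 3.54 and 3.63 on the embryonic arrays, close to background in both. On ADM arrays it read 9.03, 8.69 and 9.07, and on tumor arrays 7.99, 8.26 and 7.90. All 6 arrays of cultured cells lay above all 6 arrays of fresh isolates. In log2 terms Ereg rose by 5.14 ± 0.19 (SE, n = 3 per group) in ADM against adult cells, a 35.3-fold difference, adjusted p = 1.04e-09 in limma. In tumor against adult cells it rose by 4.26 ± 0.19, adjusted p = 2.56e-09, which is 19.2-fold. Tumor cells stood 0.88 ± 0.19 below ADM with no overlap of arrays (adjusted p = 0.00706), under the fold minimum. The difference read -1.0 and was called without ADM replicate 2 (adjusted p = 0.00912). A second Ereg probe set gave 3.64 ± 0.40 (SD, n = 3) in adult, 3.44 ± 0.38 in embryonic, 9.14 ± 0.44 in ADM and 8.02 ± 0.32 in tumor cells.

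Hbegf encodes HB-EGF, a ligand that binds heparan sulfate at the cell surface. Its values were 5.65, 5.03 and 5.42 on adult arrays, 5.60, 5.32 and 5.98 on embryonic arrays, 8.91, 9.25 and 8.76 on ADM arrays and 10.74, 9.91 and 9.98 on tumor arrays. Adult and embryonic arrays overlapped, ADM arrays lay above both, and tumor arrays lay above all others. Hbegf rose by 3.61 ± 0.25 (SE, n = 3 per group) in ADM against adult cells, adjusted p = 2.18e-07, and by 4.84 ± 0.25 in tumor against adult cells, adjusted p = 7.88e-09. Of the 9 genes it was the only one called higher in tumor cells than in ADM cultures, by 1.24 ± 0.25 (adjusted p = 0.00408). Tumor replicate 1 was the highest array, and without it this difference was 0.97 (adjusted p = 0.0103), under the fold minimum.

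Tgfa encodes TGF-alpha, the ligand that had been added as protein to the ADM cultures. The gene's own RNA read 3.61, 3.85 and 4.32 on adult, 3.45, 4.11 and 4.02 on embryonic, 5.17, 6.06 and 5.43 on ADM and 5.96, 5.30 and 5.56 on tumor arrays. The cultured groups lay above both fresh groups without overlap and overlapped with each other. Tgfa rose by 1.63 ± 0.27 (SE, n = 3 per group) in ADM against adult cells, adjusted p = 0.000377, a 3.09-fold difference, and by 1.68 ± 0.27 in tumor against adult cells, adjusted p = 0.000226. Centred on housekeeping genes the values were 0.84 and 0.91, under the fold minimum. Tumor and ADM differed by 0.05 with a 95% interval from -0.53 to 0.64 (limma, adjusted p = 0.948). In adult and embryonic cells the means, 3.93 and 3.86, were close to the background level of 3.62.

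Btc encodes betacellulin, a ligand of the EGF receptor and ErbB4. It read 5.42, 4.84 and 4.98 on adult, 4.89, 4.66 and 4.81 on embryonic, 6.66, 6.60 and 6.30 on ADM and 7.74, 6.31 and 6.12 on tumor arrays. Every array of cultured cells lay above every array of fresh cells, and tumor replicate 1 stood apart from the other 2 tumor arrays. Btc rose by 1.44 ± 0.33 (SE, n = 3 per group) in ADM, adjusted p = 0.004, and by 1.64 ± 0.33 in tumor cells, adjusted p = 0.00133, both against adult cells. Housekeeping centring gave 0.66 (adjusted p = 0.0962) and 0.88 (adjusted p = 0.0317), which are not called. Between tumor and ADM the difference was 0.20 (adjusted p = 0.803, 95% interval -0.51 to 0.92), and it turned to -0.31 without tumor replicate 1.

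Egf, the gene of the founding ligand, ran the other way. Adult arrays read 7.58, 7.82 and 7.76, embryonic arrays 4.17, 4.83 and 5.29, ADM arrays 3.32, 3.54 and 3.04, and tumor arrays 3.07, 3.32 and 3.26. The adult arrays lay above all others, the embryonic arrays between, and ADM and tumor arrays under background. Egf fell by 4.42 ± 0.24 (SE, n = 3 per group) in ADM against adult cells, adjusted p = 2.26e-08. In tumor cells it fell by 4.50 ± 0.24, adjusted p = 8.8e-09. Taken against the background level, it was at least 17.1-fold lower in both. Embryonic cells stood 7.76-fold under adult cells, with a log2 difference of -2.96 ± 0.24 and adjusted p = 1.35e-06. Markers of acinar cells fell with it in ADM, in 7 of 9 cases, and in tumor cells, in 9 of 9. Of all genes 4.22% and 5.96% fell in these comparisons. In embryonic against adult cells 2 of the 9 were lower, where 2.61% of all genes were, with a list median of -0.59. Fibroblast, endothelial and endocrine markers were higher in embryonic than in adult samples, each list in full (12, 10 and 10 genes). So were 5 of 10 immune markers, where 10% of all genes were. The part of these cells in the Egf difference was not tested. A further probe set, annotated to Egf together with 6330410L21Rik, stood at 3.83 ± 0.54 (SD, n = 3) in adult cells and under background, between 2.85 and 2.98, in the other groups.

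Epgn encodes epigen, a low-affinity ligand. Its 12 arrays read between 2.64 and 3.55, and all 4 group means lay under background, so no fold is given. With housekeeping centring it was called lower than in adult cells, at -1.14 in ADM and -1.13 in tumor cells, where the values as deposited were -0.35 and -0.37. The medians of all genes with that centring were -0.89 and -0.86. Epgn lies beside Ereg on chromosome 5, where RefSeq places Epgn, Ereg, Areg and Btc in that order with no other protein-coding gene between them. Of these neighbours, Ereg and Btc were higher in both cultured groups while Epgn was not above background in any group.

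Egfr encodes the EGF receptor itself. It read 5.84, 6.76 and 6.25 on adult, 6.30, 5.93 and 6.09 on embryonic, 9.11, 9.31 and 9.47 on ADM and 7.87, 8.07 and 8.27 on tumor arrays. Fresh isolates overlapped, tumor arrays lay above them and ADM arrays above all others. Egfr rose by 3.01 ± 0.22 (SE, n = 3 per group) in ADM against adult cells, an 8.07-fold difference, adjusted p = 2.75e-07. In tumor cells it rose by 1.79 ± 0.22, which is 3.45-fold, adjusted p = 1.84e-05. Tumor cells stood 1.23 ± 0.22 under ADM (adjusted p = 0.0015), a call kept with each array left out in turn.

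Erbb2 encodes the receptor that pairs with the others without a ligand of its own. Adult arrays read 4.58, 4.11 and 4.12, embryonic arrays 6.29, 6.34 and 6.36, ADM arrays 6.71, 7.25 and 6.93, and tumor arrays 7.62, 6.97 and 7.28. The adult arrays were the lowest, embryonic arrays were next, and ADM and tumor arrays overlapped above them. Erbb2 rose by 2.06 ± 0.20 (SE, n = 3 per group) in embryonic, 2.69 ± 0.20 in ADM and 3.02 ± 0.20 in tumor cells against adult cells, with adjusted p = 7.05e-06, 3.77e-07 and 7.08e-08 from limma. It was the only 1 of the 9 genes called higher in embryonic than in adult cells, where 10% of all genes were. ADM stood 0.63 ± 0.20 above embryonic cells (adjusted p = 0.0435) and tumor cells 0.96 ± 0.20 (adjusted p = 0.00267), both under the fold minimum. The second value was 1.02 with 75th percentile centring and 1.12 without tumor replicate 2, and was called in both. Tumor and ADM differed by 0.33 with a 95% interval from -0.10 to 0.76.

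Erbb3 encodes a receptor of neuregulins whose tail recruits PI3 kinase. Adult arrays read 5.05, 5.22 and 4.60, embryonic arrays 5.15, 6.22 and 5.36, ADM arrays 6.67, 7.27 and 6.79, and tumor arrays 4.81, 3.81 and 3.74. ADM arrays lay above all others, and tumor replicate 1 reached into the adult range while the other 2 tumor arrays lay near background. Erbb3 rose by 1.95 ± 0.32 (SE, n = 3 per group) in ADM against adult cells, adjusted p = 0.00036. Tumor cells stood 2.79 ± 0.32 under ADM, a 6.92-fold difference, adjusted p = 4.84e-05, and 1.46 ± 0.32 under embryonic cells, adjusted p = 0.0041. Against adult cells the tumor value was -0.84 ± 0.32 with adjusted p = 0.0581 and was not called. It was called lower under quantile normalization (-1.03), cyclic loess (-1.28), 75th percentile centring (-1.18), housekeeping centring (-1.60) and array weights (-1.0), and also when tumor replicate 1 was left out (-1.18, adjusted p = 0.00731) or adult replicate 3 was (-1.02, adjusted p = 0.0456). ADM stood 1.33 ± 0.32 above embryonic cells (adjusted p = 0.0105). That call ended without embryonic replicate 1 (adjusted p = 0.0527), without ADM replicate 2 (adjusted p = 0.0542) and with housekeeping centring, where the value was 0.998.

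**Figure D3:**
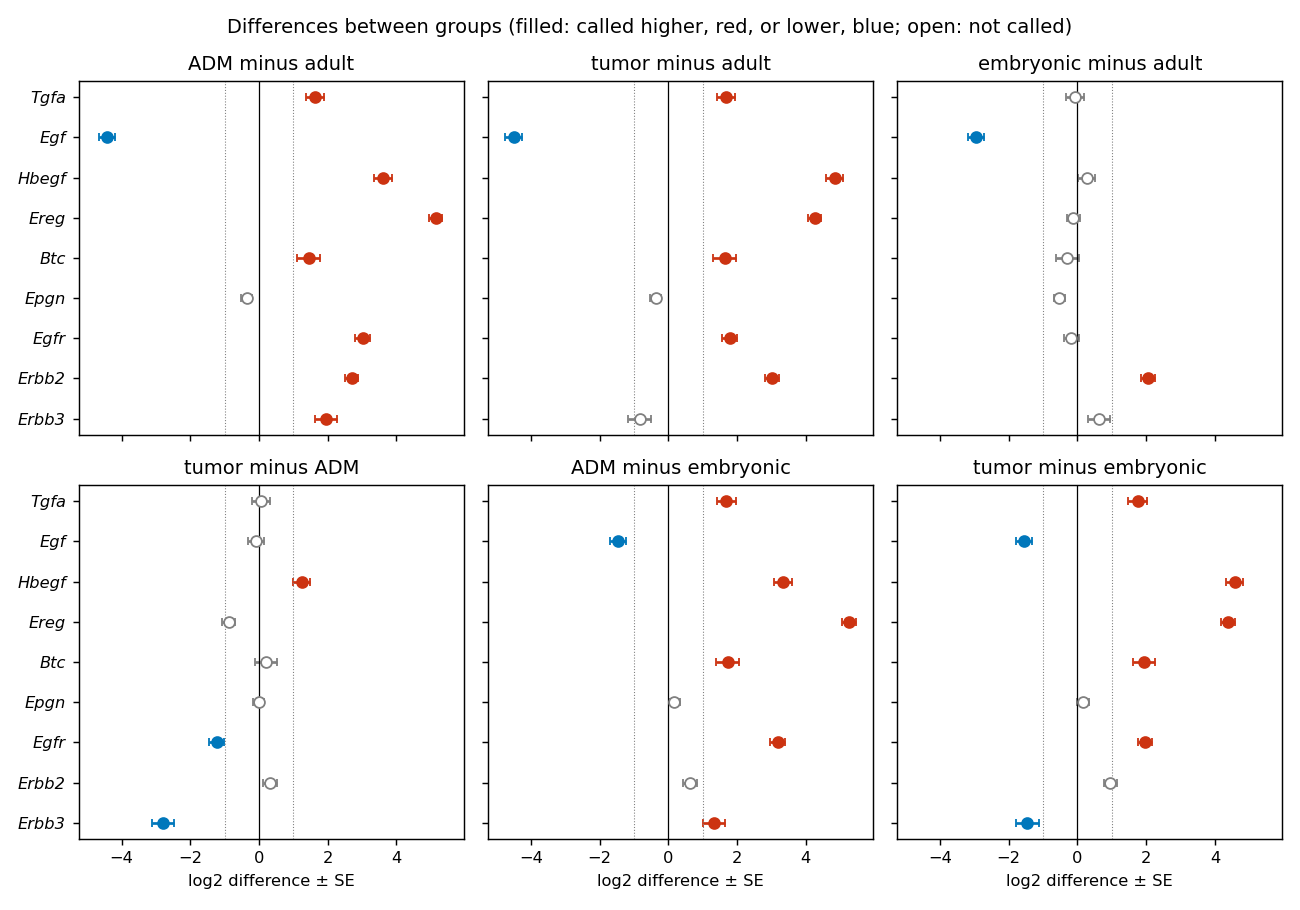
Log2 difference ± SE (horizontal axis) of the 9 genes in the 6 comparisons of the 4 groups, from the fit over all genes (n = 3 arrays per group). Filled points are called, red for higher and blue for lower, open points are not called, and dotted lines mark the fold minimum of 1. ADM and tumor cells share the ligands called against adult cells, and they part at Hbegf, Egfr and Erbb3.

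Between tumor cells and ADM cultures, 3 of the 9 genes were called, where 8.35% of all genes were. Hbegf was higher in tumor cells, where 3.28% of all genes were, and Egfr and Erbb3 were lower, where 5.07% were. The 3 receptors therefore had 3 different orders: Egfr ran ADM, tumor, then adult and embryonic, Erbb2 ran tumor and ADM, embryonic, then adult, and Erbb3 ran ADM, then embryonic and adult, with tumor cells lowest. Names joined by "and" did not pass an adjusted p of 0.05 between them, nor did adult and tumor cells for Erbb3. ADM against embryonic cells gave 7 of 9 called, where 9.46% of all genes were, with 6 higher, where 4.55% of all genes were, and 1 lower, where 4.91% were. Tumor against embryonic cells gave 7 of 9 called, where 14.3% of all genes were, with 5 higher, where 6.53% of all genes were, and 2 lower, where 7.80% were. The groups did not overlap for 9 of 9 genes in ADM against adult cells, where 49.8% of all genes did not, and for 8 of 9 in tumor against adult, where 43.7% did not. The count was 3 of 9 in embryonic against adult (42.9% of all genes), 4 of 9 in tumor against ADM (31.6%), 8 of 9 in ADM against embryonic (37.6%) and 8 of 9 in tumor against embryonic (38.6%). Epgn, under background in every group and not called, is part of the counts for ADM, tumor and embryonic against adult cells.

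Tumor replicate 1 was the highest of the 3 tumor arrays for 5 of the 9 genes, namely Tgfa, Hbegf, Btc, Erbb2 and Erbb3. Replicates 2 and 3 were the highest for 2 genes each. The SD of the tumor group was 0.89 for Btc, 0.60 for Erbb3 and 0.46 for Hbegf, and 0.33 or less for the other 6 genes.

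Between adult cells and ADM cultures, fibroblast and stellate markers moved in the same direction as the 4 ligands and 3 receptors. Of 12 such markers 9 were called higher, where 12.5% of all genes were. In tumor cells 8 of the 12 were at or under background. Ereg, Hbegf, Tgfa, Btc, Egfr and Erbb2 were higher there than in adult cells. In embryonic samples all 12 markers and Erbb2 were called higher than in adult cells, where 10% of all genes were. Ereg, Hbegf, Tgfa, Btc and Egfr were not called higher there. The part of fibroblasts and stellate cells in the differences of any of these groups was not tested.

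The rest of the ErbB family was mostly dim. Erbb4 and the neuregulin gene Nrg3 had all 4 group means at or under background, Nrg2 was above it in adult cells alone (3.82 ± 0.72, SD, n = 3), and Nrg4 stood between 3.74 and 3.95 in every group. Nrg1, which encodes a ligand of ErbB3 and ErbB4, read 4.57, 3.41 and 4.16 on adult, 4.02, 4.05 and 3.37 on embryonic, 5.86, 5.21 and 5.59 on ADM and 5.69, 7.94 and 8.04 on tumor arrays. Tumor replicate 1 lay within the ADM range and the other 2 tumor arrays above it. Nrg1 rose by 3.18 ± 0.51 (SE, n = 3 per group) in tumor against adult cells, adjusted p = 0.000207. The ADM value of 1.51 ± 0.51 (adjusted p = 0.0336) was lost under all 4 other scalings, with adjusted p from 0.0617 to 0.191, and without adult replicate 2 or 3 or ADM replicate 1 or 3. The tumor value over ADM, 1.67 ± 0.51 (adjusted p = 0.0401), was lost without any 1 of the 3 ADM arrays, without tumor replicate 2 or 3, without adult replicate 3, without embryonic replicate 1 or 2, under quantile normalization and with only these groups fitted. The block on replicate number took the call from both, with adjusted p = 0.0514 for ADM against adult and adjusted p = 0.0658 for tumor against ADM.

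Among 15 genes of ligand shedding and trafficking, 11 rose in ADM against adult cells, where 12.5% of all genes did, and 0 fell, where 4.22% did, with a median of 1.39. The metalloprotease genes Adam12, Adam19 and Adam9 rose by 3.65 ± 0.41, 3.02 ± 0.37 and 1.95 ± 0.25 (SE, n = 3 per group). In embryonic against adult cells 4 of the 15 rose, where 10% of all genes did, and 0 fell, where 2.61% did. Among them Adam12 rose by 1.90 ± 0.41 and Adam19 by 2.47 ± 0.37. Between ADM and embryonic cells Adam12 was higher in ADM by 1.76 ± 0.41, and Adam19 was not called (0.55 ± 0.37, adjusted p = 0.414 in limma). Under the 4 other scalings 2 or 3 of the list rose in embryonic cells. In tumor cells 6 rose and 2 fell against adult cells (median 0.80), where 14.0% and 5.96% of all genes did. Adam9 rose by 1.98 ± 0.25. Ap1m2, a subunit of the epithelial sorting adaptor AP-1B, was at least 9.21-fold lower, and Timp3, which encodes an inhibitor of such proteases, fell by 2.08 ± 0.27. Against ADM, 5 of the 15 fell in tumor cells, where 5.07% of all genes did, and 0 rose, where 3.28% did. With housekeeping centring the list counted 3 higher and 0 lower in ADM against adult (median 0.60), and 2 higher and 3 lower in tumor against adult (median 0.029). The medians of all genes were then -0.89 and -0.86. The other 3 scalings gave 7 to 9 higher in ADM, and 5 higher and 2 lower in tumor cells.

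Among 18 genes that restrain the receptor, 7 rose in ADM and 0 fell (median 0.77), where 12.5% and 4.22% of all genes did. In tumor cells 8 rose and 1 fell (median 0.73), where 14.0% and 5.96% did, both against adult cells. With housekeeping centring the counts were 2 higher and 0 lower in ADM, and 2 higher and 1 lower in tumor cells. Errfi1, an inhibitor of the EGF receptor kinase that its signalling induces, rose by 2.35 ± 0.18 (SE, n = 3 per group) in ADM and 1.88 ± 0.18 in tumor cells. Sh3kbp1, an adaptor of CBL-driven receptor uptake, rose by 3.25 ± 0.27 and 3.42 ± 0.27.

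Of 18 adaptors and proximal signalling genes, 5 rose in ADM and 0 fell, and 6 rose and 2 fell in tumor cells, beside the same shares of all genes (12.5% and 4.22%, 14.0% and 5.96%). Here the balance turned with the scaling. Housekeeping centring gave 1 higher and 2 lower in ADM, and 1 higher and 4 lower in tumor cells, where quantile normalization and cyclic loess each gave 3 higher and 3 lower. The docking protein gene Gab2 rose by 1.88 ± 0.27 and 1.94 ± 0.27 (SE, n = 3 per group). Of 16 endocytosis and sorting genes 5 rose in ADM, 4 rose in tumor cells and 0 fell in either, beside those shares again. Housekeeping centring gave 0 higher in both, with 1 lower in ADM and 2 lower in tumor cells. Epn2, an endocytic adaptor gene, stood at 1.58 ± 0.18 and 1.66 ± 0.18, which housekeeping centring took to 0.79 and 0.90, under the fold minimum. The medians of the restraint, adaptor and endocytosis lists lay between 0.71 and 0.78 in both comparisons as deposited and between -0.06 and -0.01 with housekeeping centring. That centring shifts all genes of an array by the same amount. The medians of all genes were -0.11 in ADM and -0.09 in tumor cells as deposited, and -0.89 and -0.86 with housekeeping centring.

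In embryonic against adult cells 3 restraint genes, 4 adaptors and 0 endocytosis genes rose and 0 fell, where 10% of all genes rose and 2.61% fell. The 4 other scalings gave 1 or 2 restraint genes and 1 or 2 adaptors higher, and 1 endocytosis gene was lower with housekeeping or 75th percentile centring.

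MAPK output genes are often read as a report on the cascade below the receptor, whose activity was not measured here. They rose in 13 of 17 cases in ADM (median 2.10) and 14 of 17 in tumor cells (median 2.57). In embryonic cells 10 of 17 rose (median 1.06). These counts are against adult cells, and 0 fell. Of all genes 12.5%, 14.0% and 10% rose in these comparisons. A further listed gene, Fosl1, had no value. Plaur, the urokinase receptor gene, rose by 5.37 ± 0.19 (SE, n = 3 per group) in ADM and 6.34 ± 0.19 in tumor cells. The phosphatase gene Dusp4 rose by 3.14 ± 0.28 and 2.71 ± 0.28 and stood at 0.23 ± 0.28 in embryonic cells. Spry2, a feedback inhibitor of receptor signalling, rose in all 3 groups, by 2.61 ± 0.23 in embryonic, 2.67 ± 0.23 in ADM and 3.54 ± 0.23 in tumor cells. The cyclin D1 gene Ccnd1 was the only 1 of 17 called between tumor and ADM, higher by 1.75 ± 0.21. Of all genes 8.35% were called in that comparison and 3.28% were higher. Under the 4 other scalings the list counted 11 or 12 higher in ADM, 12 or 13 in tumor cells and 7 in embryonic cells, and 1 lower in tumor cells with housekeeping centring.

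**Figure D4:**
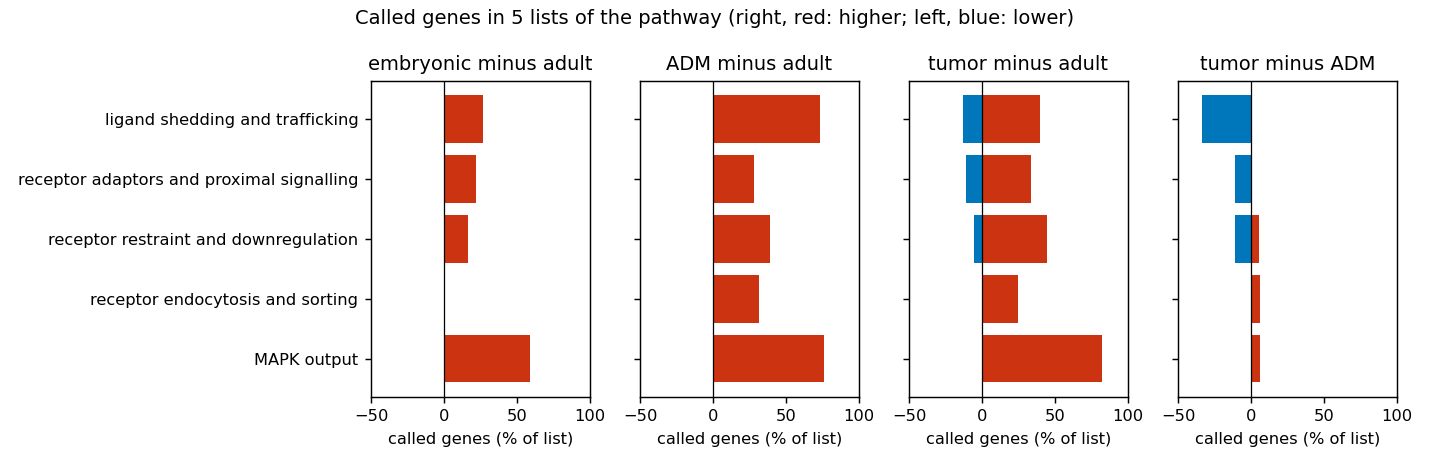
Percent of the measured genes of 5 pathway lists (rows) called higher (red, to the right) or lower (blue, to the left) in 4 comparisons. Ligand shedding and MAPK output show the fullest bars in ADM against adult cells, with 11 of 15 and 13 of 17 genes higher, and in tumor against ADM 5 of 15 shedding genes are lower.

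Genes with the most similar profile were found by the root mean square (RMS) difference over the 12 arrays after each gene was centred on its own mean, for the 6 genes whose group means spanned at least 2. Nearest to Egf were Aass, an enzyme gene of lysine breakdown (RMS 0.22), Grpr, the receptor gene of gastrin-releasing peptide (0.32), and C2cd4b (0.42). Nearest to Hbegf were Crybg1 (0.29), Arl14 (0.35) and Epha2, an ephrin receptor gene (0.38). Ereg was nearest to Ier3, an immediate early gene (0.48), Foxq1 (0.49) and Sdcbp2 (0.54). Egfr was nearest to Mpzl3 (0.27), Chrnb1 (0.33) and Fgd3 (0.36), and Erbb2 to Rab12 (0.22), Elk3 (0.23) and Spats2 (0.25). Erbb3 was nearest to the syntaxin gene Stx3 (0.28), Fam83b (0.35) and Rgs17 (0.35), which also peaked in ADM and were lowest in tumor cells. No member of the family was among the 3 nearest genes of another. The points share arrays and fall into 4 groups, so the RMS values describe likeness only.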

How the data were processed

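Total RNA was labelled with biotin and hybridised to Affymetrix arrays, per the labels' protocols. The authors deposited log2 signal per probe set, 41345 on each of 12 arrays, with values from 1.56 to 13.67. The log base was inferred from this range, and the software and normalization are not given in the sources used here. Depth has no meaning for arrays, and 3 arrays a group set the precision. Of the probe sets, 23521 had 1 symbol in the platform annotation, 1814 several and 16010 none. The first kind gave 22180 genes, and the probe set with the highest mean was used for each. A mean per group was fitted to all 12 arrays with limma 3.58.1 (lmFit, contrasts.fit, eBayes) in R 4.3.3, with 8 residual and 5.02 prior degrees of freedom and no replicate block. All 6 pairs of groups were tested, two-sided, with Benjamini-Hochberg adjustment over all genes of a pair. The fit was checked on simulated data. "At least" folds set the dimmer group to the background level. The members of the gene set and of the lists were chosen with earlier results of these data known. All measured members are named. Other list genes are named only from the 3 called ones with the largest absolute difference against adult cells in each list, and nearest genes by the 3 smallest distances, without predicted genes and receptor families. No set test was run. Alternatives were 4 other scalings, a filter on dim genes, mean probe sets, fits of 2 groups, array weights, a trended robust prior, a replicate block and leaving out each array.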

Additional observations from a re-analysis of the deposited data

How the results depend on the processing

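The number of the 9 genes called, in either direction, stayed within 1.5 times in each of the 6 comparisons under every alternative run. That total hides a change of balance with housekeeping centring, where the ligands called against adult cells went from 4 higher and 1 lower to 2 higher and 2 lower in both ADM and tumor cells. Calls over all genes moved the same way, from 74.7% to 10.7% higher in ADM and from 70.2% to 14.2% in tumor cells. As each array was left out the number of the 9 genes called ranged from 8 to 8 in ADM against adult, 2 to 2 in embryonic against adult, 7 to 8 in tumor against adult, 2 to 4 in tumor against ADM, 6 to 7 in ADM against embryonic and 7 to 8 in tumor against embryonic. Over all genes the count moved beyond that only with housekeeping centring, from 3701 to 9884 in ADM against adult and from 4429 to 9336 in tumor against adult. Epgn had no value with dim genes left out. All signs that turned were of differences that were not called. Hbegf in embryonic against adult cells (0.27) became -0.16 under quantile normalization, -0.18 with housekeeping centring and -0.13 with 75th percentile centring. Btc in tumor against ADM became -0.066 with array weights. Epgn, under background throughout, became 0.0015 and 0.053 in tumor against ADM, -0.16 in ADM against embryonic and -0.16 in tumor against embryonic, with housekeeping or 75th percentile centring. The cause of these moves was not tested. With arrays left out, embryonic against adult ranged from -0.23 to 0.14 for Tgfa, -0.31 to 0.05 for Ereg and -0.40 to 0.062 for Egfr. Tumor against ADM ranged from -0.14 to 0.31 for Tgfa, -0.21 to 0.037 for Egf, -0.31 to 0.51 for Btc and -0.065 to 0.02 for Epgn. The replicate block left the counts of members at 8, 2, 7, 3, 7 and 7 and changed no call of a member. Deviations of same-numbered arrays correlated between -0.05 and 0.13 over 18 pairs, 1 of them over 0.1. No clear shift common to same-numbered arrays was seen, which cannot show that they were prepared separately. With 3 arrays a group, a difference close to the fold minimum, such as Erbb3 in tumor against adult cells, is called or not with the setting.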
